A study of Mus musculus with 7 samples.

Results

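The genes described here encode the proteins of the cytosolic ribosome, taken from the expression table by their symbols (Rpl and Rps followed by a number, with Rplp0, Rplp1, Rplp2, Rpsa and Fau). Of the 12756 genes listed, 80 met this rule, 48 of the large subunit and 32 of the small subunit. Among them, 76 are genes of the standard set of mammalian ribosomal proteins, and the other 4 (Rpl22l1, Rpl7l1, Rps27l and Rpl32l) are relatives or bear a related name. Rack1, which also encodes a ribosomal protein, falls outside the naming rule and is given beside it. Rpl21 and Rps20 were not analysed here.

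The RNA came from retinas of adult C57BL/6 mice, and the mice of both groups carried Cdh5-CreERT2 and the RiboTag allele Rpl22 tm1.1Psam. Cdh5 encodes the cadherin of endothelial junctions, so Cre is made in endothelial cells, where recombination attaches an HA epitope to Rpl22. Ribosomes with the tag were then collected with an anti-HA antibody. The treatment was control IgG for 3 libraries and anti-Dll4, which binds a Notch ligand, for 4 libraries. The sources used here give no dose, no duration and no count of animals per library. A p-value therefore weighs the group difference against the spread between libraries of a group, and that spread may be technical. In both groups the ribosomes carry the tag, and the comparison asks how blocking Dll4 changes the RNA held by them.

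Ribosomal proteins assemble with ribosomal RNA in the nucleolus into a small subunit, which reads the mRNA, and a large subunit, which joins amino acids. Their mRNAs are short and abundant, and most begin with a C followed by a run of pyrimidines, the 5′ terminal oligopyrimidine (TOP) motif. Through this motif their translation responds to the kinase mTORC1, with Larp1 as a repressor that binds the capped motif. Cells make the proteins in matched amounts, and subunits left unassembled are degraded. Rpl22 is the protein that carries the RiboTag epitope, and Rpl22l1 encodes its close paralog.

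The starts of several of these genes are shown because the family shares this motif. Each line gives 30 bases of the gene's own strand, 5′ to 3′, from 10 bases before a RefSeq transcript start to 20 bases from it on, and capitals mark a C that lies within 5 bases of the start together with the run of C or T after it, where that run has at least 4 bases. Rps9 and Rpl13a are the members called in the comparison below, and Fau, Rpl27a and Rps18 had separate groups. Rpl22l1 is shown beside Rpl22, which has 2 starts in RefSeq, and Rpl4 is among the most abundant members.
Rps9 (GRCm38.p6, chr7:3704031-3704060, plus strand): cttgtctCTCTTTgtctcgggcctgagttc
Rpl13a (GRCm38.p6, chr7:45128726-45128755, minus strand): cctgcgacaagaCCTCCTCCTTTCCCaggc
Fau (GRCm38.p6, chr19:6057937-6057966, plus strand): gcccccacttCTTCCTCTTTCTTgactcca
Rpl27a (GRCm38.p6, chr7:109519185-109519214, plus strand): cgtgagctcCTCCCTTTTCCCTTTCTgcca
Rps18 (GRCm38.p6, chr17:33955646-33955675, minus strand): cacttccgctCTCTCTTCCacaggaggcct
Rpl22l1 (GRCm38.p6, chr3:28805498-28805527, plus strand): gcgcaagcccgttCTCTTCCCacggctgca
Rpl22 (GRCm38.p6, chr4:152324426-152324455, plus strand): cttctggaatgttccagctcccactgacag
Rpl22 (GRCm38.p6, chr4:152325716-152325745, plus strand): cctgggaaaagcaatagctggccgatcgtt
Rpl4 (GRCm38.p6, chr9:64173377-64173406, plus strand): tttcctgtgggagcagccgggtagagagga
The tract of Rpl27a is the longest of these, and neither start of Rpl22 nor that of Rpl4 has a match in this window. RefSeq promoter sequences matched 62 of the 80 members, and 31 of the 62 (50.0%) had such a start, against 21.2% of all 27025 genes with a promoter sequence. The share was 48.6% of 37 large-subunit and 52.0% of 25 small-subunit genes, and 24.6% of 65 mitochondrial ribosomal protein genes, whose products belong to another ribosome. Among members whose libraries did not overlap and were higher with anti-Dll4, 13 of 21 had the motif (61.9%), and among the other members 18 of 41 (43.9%). Rpl10, Rpl13, Rpl26, Rps3a1, Rps12, Rps16, Rps19 and Rpsa were separate and higher without a match, and their starts are not shown above. With the C allowed within 15 bases of the start the shares were 71.0% of members and 44.9% of all genes. Annotated starts can lie some bases away from the true start, and a missing match says only that the letters are not in this window.

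Each library had between 1356192 and 1771086 reads in all genes, and the 80 members held 15855 to 45274 of them. Values are counts per 1000000 reads (CPM), taken at transcript 3′ ends. Libraries are called by the number in their column, and the control column numbered 1 matches no sample title by number. Values per library are listed below in the order control IgG 1, 3 and 4 and anti-Dll4 1, 2, 3 and 4. Endothelial cells were the intended source, and all 24 endothelial markers were in the table, 0.307, 0.494 and 0.364% of CPM with control IgG against 0.776, 0.776, 1.12 and 0.886% in anti-Dll4 libraries, with Tek, Emcn, Sox17, Icam2 and Ptprb at 0 in at least 1 library. The 21 rod markers held more, 3.30, 3.28 and 3.37% against 2.85, 2.45, 1.55 and 2.00%, so RNA of other cells was present, and a level cannot be assigned to endothelium alone.

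Ribosomal protein transcripts held a larger share of the reads in every anti-Dll4 library than in any control library. The 48 large-subunit genes summed to 0.674, 0.727 and 0.675% of all CPM in control libraries and to 1.13, 1.10, 1.45 and 1.39% in anti-Dll4 libraries. The 32 small-subunit genes summed to 0.425, 0.442 and 0.445% against 0.809, 0.828, 1.02 and 1.17%. Group means were 0.692% ± 0.0306 (SD, n = 3) and 1.27% ± 0.178 (SD, n = 4) for the large subunit, a ratio of 1.83, and 0.437% ± 0.0104 (SD, n = 3) and 0.957% ± 0.171 (SD, n = 4) for the small subunit, a ratio of 2.19. The control libraries lay close together, and anti-Dll4 3 and 4 stood above anti-Dll4 1 and 2 for both subunits. Since members were chosen with earlier results known, these sums are described without a test. Without Rpl13a the large-subunit ratio was 1.74, and without Rps9 the small-subunit ratio was 2.10.

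**Figure D1:**
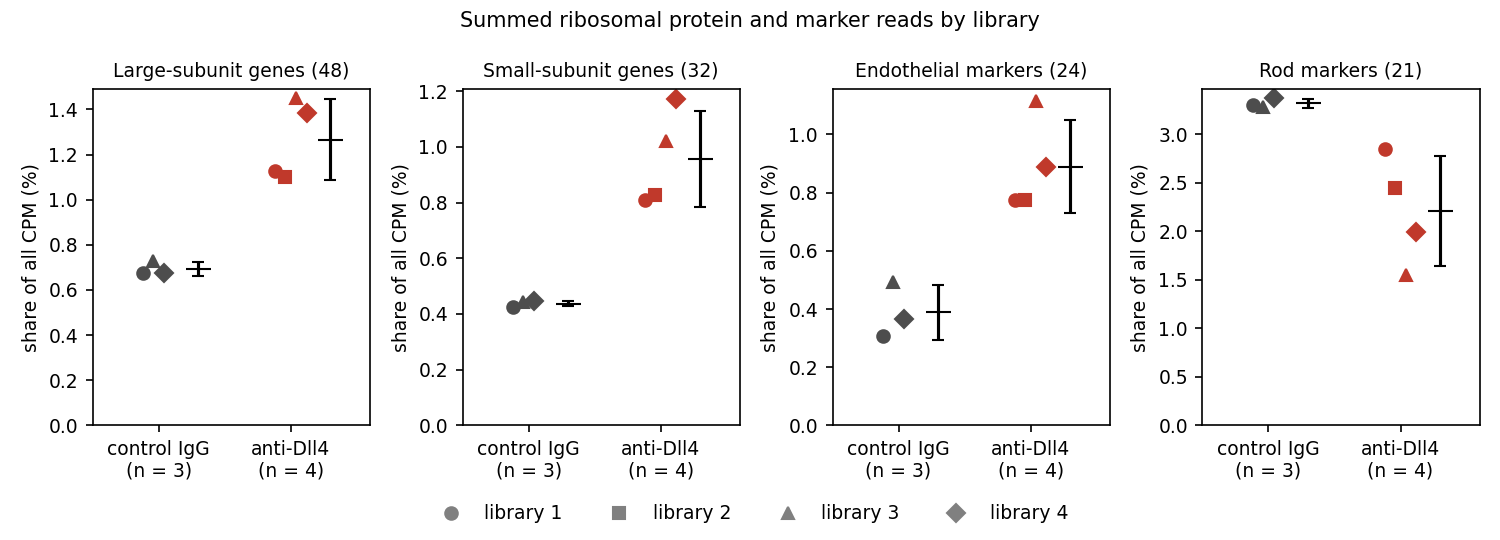
Percent of all CPM per library (vertical axes from 0) held by large-subunit genes, small-subunit genes, endothelial markers and rod markers, with the group mean and SD beside the points (3 control IgG and 4 anti-Dll4 libraries). Every anti-Dll4 library lies above every control library in the first 3 panels and below them in the rod panel; scaled on the endothelial markers, the difference of both ribosomal shares turns below 0.

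Of the cell types whose markers were summed, the shares of 2, endothelial cells and rods, did not overlap between the groups. Of the 24 endothelial markers 20 had a positive change, with a summed share of 0.307 to 0.494% in control and 0.776 to 1.12% in anti-Dll4 libraries. Of the 21 rod markers 3 had a positive change, with 3.28 to 3.37% and 1.55 to 2.85%, and anti-Dll4 3 and 4 had the lowest rod shares. Per unit of endothelial marker CPM, the members' CPM was 3.58, 2.37 and 3.07 with control IgG against 2.49, 2.48, 2.22 and 2.88 with anti-Dll4, and these groups overlapped. In RNA collected with anti-HA, fewer cells of a type, less RNA per cell and a different carry-over of other RNA cannot be told apart. No library of retinal RNA from before the anti-HA step was compared. With libraries scaled to equal endothelial marker CPM the median log2 change of all genes moved from -0.14 to -1.17, that of the large-subunit genes from 0.96 to -0.23 and that of the small-subunit genes from 1.32 to 0.13. Of the 24 endothelial markers, 2 are themselves called higher in the comparison below, so this scaling may not be neutral to the treatment. Whether anti-Dll4 changes these markers within endothelial cells was not tested. In a fit that adds the mean of the rod markers as a covariate, the subunit medians were 0.55 and 1.10. Because the rod shares of the 2 groups do not overlap, that fit cannot fully separate treatment from rod content. Without covariate or scaling, the subunit medians lay 1.10 (large) and 1.46 (small) above the median of all genes. That distance was 0.55 and 1.10 with the rod covariate, and 0.94 and 1.30 with endothelial scaling.

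The 2 treatments were compared on log2(CPM + 1) over all 10899 genes that reached 1 CPM in 3 or more libraries, and all 80 members passed that filter. A change below is a difference of mean log2(CPM + 1), anti-Dll4 minus control IgG, with its limma standard error, and a gene is called at a Benjamini-Hochberg adjusted p under 0.05. Rpl13a and Rps9 were called, both higher, which is 2 of 80 members beside 13 of all 10899 genes (0.119%). No member was called lower, and over all genes limma called 0 lower (0%), with 372 lower at an unadjusted p under 0.05 (3.41%). Voom on whole reads called Rpl13a and Rps9 as well, beside 14 higher (0.128%) and 24 lower genes (0.220%) in all. At an unadjusted p under 0.05, 30 members were higher and 1, Rpl30, was lower, while 401 of all genes (3.68%) were higher.

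Most members had a positive change. Among large-subunit genes, 38 of 48 were positive with a median of 0.96, and among small-subunit genes 29 of 32 with a median of 1.32. Over all tested genes, 45.5% were positive and the median was -0.14. The libraries of the 2 groups did not overlap for 28 members that were higher, 12 of the large and 16 of the small subunit, and for 1 that was lower. Over all genes 418 (3.84%) were separate and higher and 409 (3.75%) separate and lower. The small subunit made up 38.7, 37.8 and 39.7% of member CPM with control IgG against 41.8, 43.0, 41.3 and 45.8% in anti-Dll4 libraries, groups that did not overlap. Without Rps9 and Rpl13a these shares were 40.7, 37.9 and 39.7% against 44.0, 44.0, 42.9 and 45.3%.

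**Figure D2:**
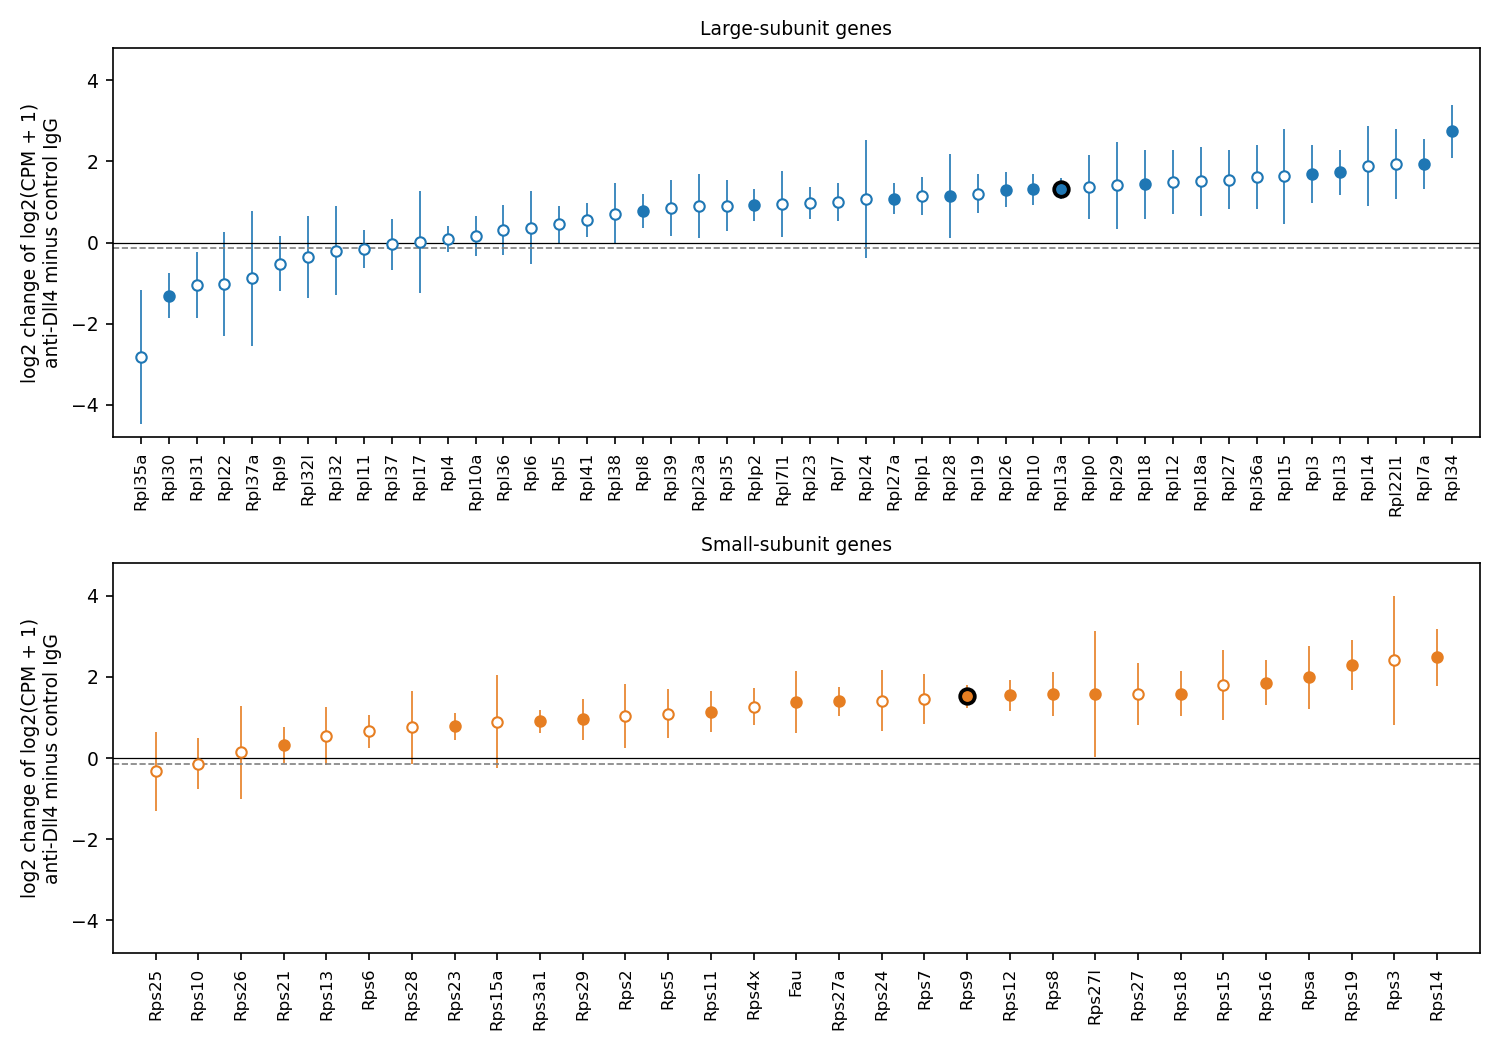
Change of log2(CPM + 1), anti-Dll4 minus control IgG (points, with the limma standard error), of the 48 large-subunit genes (upper panel) and 31 of the 32 small-subunit genes (lower panel), in order of size. Filled points mark genes whose libraries do not overlap between the groups, and black rings the called genes Rpl13a and Rps9. The dashed line is the median of all tested genes at -0.14. Most points lie above 0 under this scaling. When libraries are scaled on endothelial markers, 18 of all 48 and 17 of all 32 genes do, and the median of all genes is -1.17.

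Rpl13a led the large subunit in abundance. It encodes a protein that can leave the ribosome after interferon gamma and then represses inflammatory mRNAs. Rpl13a was at 1240.4, 939 and 600.2 CPM with control IgG against 2570.0, 2099.6, 2427 and 1889 CPM with anti-Dll4. Every anti-Dll4 library lay above the highest control library, by the least in anti-Dll4 4. Group values were 926 ± 320.3 CPM (SD, n = 3) and 2246 ± 309 CPM (SD, n = 4), and Rpl13a rose by 1.33 ± 0.26 (adjusted p = 0.0465, limma). The call was lost when any one of 6 libraries was left out, all but control IgG 1, and the change then ranged from 1.05 without control IgG 4 to 1.41 without anti-Dll4 4 (adjusted p = 0.0808 to 0.291). Scaled on endothelial markers the change was 0.12 (adjusted p = 0.876), and with the rod covariate 1.36 (adjusted p = 0.556). Its mRNA has processed pseudogenes, as do those of most members, and reads shared with such copies leave the values uncertain.

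Rpl34 had the largest positive change of the large subunit. Its control libraries were at 54.3, 77.4 and 15.6 CPM and its anti-Dll4 libraries at 175, 516, 235 and 277 CPM. The groups were separate, with anti-Dll4 2 the highest by far, and the change was 2.74 ± 0.65 (adjusted p = 0.140, limma). The table gives Rpl34 and the pseudogene Rpl34-ps1 the same reads in every library, so one cannot be told from the other.

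Rpl7a, whose product lies near the tunnel through which nascent chains leave, had 119, 38.3 and 60.0 against 198, 272, 135 and 556 CPM, with separate groups and a change of 1.94 ± 0.61 (adjusted p = 0.393). Rpl14 had 27.7, 28.8 and 9.12 against 24.8, 145, 69.7 and 123 CPM, and anti-Dll4 1 lay among the control libraries (change 1.88 ± 0.99, adjusted p = 0.711). Rpl13, a separate gene from Rpl13a, had 323, 45.0 and 340.2 against 428, 508, 547 and 881 CPM, with control IgG 3 far below the other controls and a change of 1.73 ± 0.55 (adjusted p = 0.404). Without control IgG 3 the change of Rpl13 was 0.78 (adjusted p = 0.917).

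Among the 5 large-subunit genes with the highest mean CPM, the changes ran from that of Rpl4, near 0, to that of Rpl13. Rpl4, a protein that lines the exit tunnel, was at 482, 877 and 587 CPM with control IgG against 786, 566, 731 and 616 CPM with anti-Dll4. These groups overlapped fully, the change was 0.09 ± 0.32, and relative to the summed member CPM it was -0.87. Rpl27a had 164, 369 and 296 against 593, 415, 741 and 524 CPM, with every anti-Dll4 library above the controls and a change of 1.08 ± 0.39 (adjusted p = 0.552), which turned to -0.12 when scaled on endothelial markers. Rpl41, which encodes the smallest ribosomal protein, had 280.3, 352 and 399 against 208, 609, 684 and 733 CPM. Its anti-Dll4 1 library was the lowest of all 7 and the other anti-Dll4 libraries were the highest (change 0.56 ± 0.43, adjusted p = 0.813), and without that library the change was 0.98.

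The stalk proteins Rplp0, Rplp1 and Rplp2 form the flexible arm that recruits translation factors to the large subunit. Rplp2 was at 181, 319 and 197 CPM with control IgG against 491, 342, 494 and 405 CPM with anti-Dll4, separate groups with a change of 0.93 ± 0.40 (adjusted p = 0.690). Rplp1 was at 116, 324 and 179 against 259, 378, 808 and 389 CPM, where anti-Dll4 1 lay below control IgG 3 (change 1.15 ± 0.47, adjusted p = 0.678). Rplp0 was at 16.5, 83.3 and 117 against 55.6, 92.4, 337 and 239 CPM, again with overlap (change 1.36 ± 0.79, adjusted p = 0.745). The change of Rplp0 was 0.53 without control IgG 1, 0.056 with the rod covariate and 0.18 when scaled on endothelial markers. Anti-Dll4 3 was the highest library for all 3 stalk genes. Rpl5 and Rpl11, which form a particle with 5S ribosomal RNA and can bind Mdm2, had changes of 0.45 ± 0.46 and -0.16 ± 0.47, which did not pass the test, and the groups of both overlapped. Of the 8 genes whose proteins surround the tunnel exit (Rpl17, Rpl19, Rpl22, Rpl23a, Rpl26, Rpl31, Rpl35 and Rpl39), 6 had a positive change. The 8 changes ran from -1.04 for Rpl31 to 1.31 for Rpl26, and 0 were called.

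**Figure D3:**
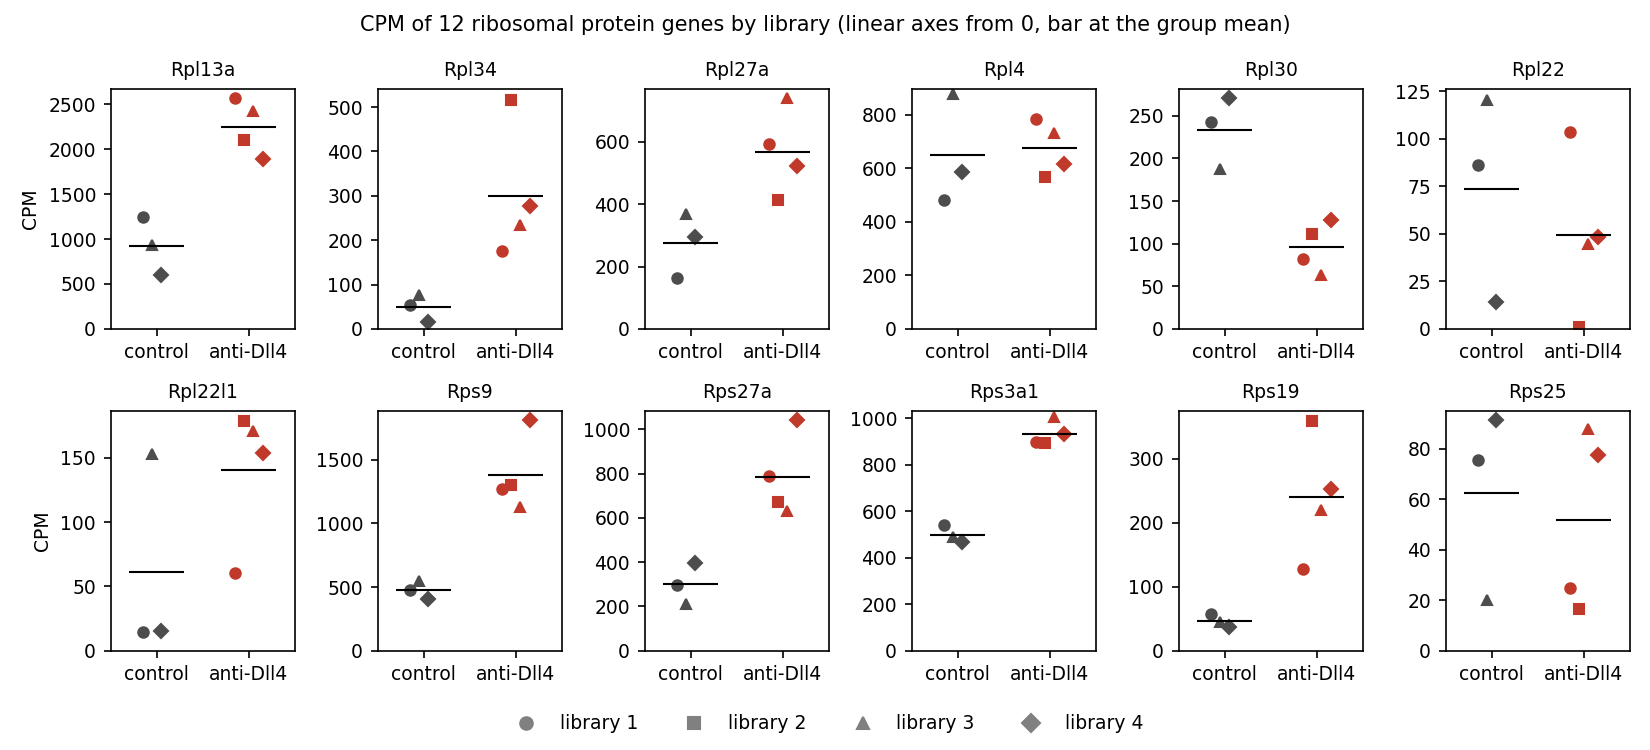
CPM per library (linear vertical axes from 0, marker shape for the library number, bar at the group mean) of 7 large-subunit and 5 small-subunit genes in 3 control IgG and 4 anti-Dll4 libraries. The groups are separate and higher with anti-Dll4 for Rpl13a, Rpl34, Rpl27a, Rps9, Rps27a, Rps3a1 and Rps19, separate and lower for Rpl30, and overlap for Rpl4, Rpl22, Rpl22l1 and Rps25.

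Rpl30 was the member whose libraries were separate and lower with anti-Dll4. Its protein binds RNA kink-turns, and in yeast it represses the splicing of its own transcript. Rpl30 was at 243, 187 and 271 CPM with control IgG against 81.7, 111, 62.9 and 128 CPM with anti-Dll4. Every anti-Dll4 library lay below every control library, as for 3.75% of all genes, and the change of -1.31 ± 0.55 did not pass the test (adjusted p = 0.688, limma). Scaled on endothelial markers, the change was -2.51 and passed (adjusted p = 0.0476), where 162 of all 10899 genes (1.49%) were called lower and the median of all genes was -1.17. Relative to the summed member CPM, an alternative added after the data were seen, it was -2.27 (adjusted p = 0.0671). Dividing by the members' own sum removes a change they share, by construction. By that measure 36 of 80 members were below 0 and 0 were called.

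Besides Rpl22 and Rpl30, the most negative changes of the large subunit were those of Rpl31 and Rpl35a. Rpl31 was at 98.0, 64.2 and 160.3 CPM with control IgG against 52.9, 108, 17.6 and 52.5 CPM with anti-Dll4, with overlap between the groups (change -1.04 ± 0.81, adjusted p = 0.818). The change of Rpl31 was -0.58 without anti-Dll4 3 and -0.050 with the rod covariate. Rpl35a, mutated in some patients with Diamond-Blackfan anaemia, had 75, 41 and 126 reads with control IgG against 1, 1, 145 and 17 reads with anti-Dll4. Its anti-Dll4 3 library matched the highest control while anti-Dll4 1 and 2 held 1 read each, so the change of -2.81 ± 1.65 (adjusted p = 0.749) has a wide error.

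The transcript of Rpl22, the tagged protein, had no clear direction. It was at 86.2, 120.2 and 14.3 CPM with control IgG against 104, 1.22, 44.8 and 48.6 CPM with anti-Dll4, from 146, 163 and 22 reads against 155, 2, 79 and 86 reads. The groups overlapped widely, with anti-Dll4 2 near 0 and control IgG 4 low. The change was -1.02 ± 1.28 (adjusted p = 0.900, limma), and the exact two-sided permutation test over 35 splits gave p = 0.686, where 0.0286 is the smallest it can give. Without anti-Dll4 2 the change was 0.18, so its direction rests on that library. The table does not separate tagged from untagged Rpl22 transcripts, and other cells of the retina also make Rpl22, so these values say nothing of how much tagged protein was present. Rpl22l1 had 14.8, 153 and 15.6 CPM with control IgG against 60.3, 179, 171 and 154 CPM with anti-Dll4. Control IgG 3 was as high as the upper anti-Dll4 libraries, and the change was 1.93 ± 0.86 (adjusted p = 0.695), or 3.01 (adjusted p = 0.416) without that control library. The highest library for Rpl22l1, anti-Dll4 2, was the lowest for Rpl22, while control IgG 3 was high for both.

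Rps9 led the small subunit. Its protein sits with Rps2 and Rps3 where mRNA enters the ribosome. Rps9 was at 475, 543 and 407 CPM with control IgG against 1266, 1301, 1132 and 1814 CPM with anti-Dll4. The lowest anti-Dll4 library held more than the highest control by a margin wider than the spread of the controls. Group values were 475 ± 68.1 CPM (SD, n = 3) and 1378 ± 299.5 CPM (SD, n = 4), and Rps9 rose by 1.52 ± 0.29 (adjusted p = 0.0319, limma). The call was lost without control IgG 1 or 4 or without anti-Dll4 1, 2 or 4 (adjusted p = 0.0978 to 0.176), with changes of 1.38 to 1.55. Scaled on endothelial markers the change of Rps9 was 0.32 (adjusted p = 0.649), with the rod covariate 1.59 (adjusted p = 0.308), and relative to the summed member CPM 0.56.

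At the same entry site, Rps2 had 66.7, 108 and 26.7 CPM with control IgG against 143, 147, 32.9 and 294 CPM with anti-Dll4 and a change of 1.03 ± 0.79 (adjusted p = 0.812). Rps3 had 2, 2 and 47 reads with control IgG against 46, 24, 81 and 55 with anti-Dll4, and its change of 2.41 ± 1.59 (adjusted p = 0.774) had a wide error and was 3.66 without control IgG 4. At the site where mRNA leaves, Rps14 had 29.5, 28.0 and 38.4 CPM with control IgG against 132, 88.1, 320.1 and 289.7 CPM with anti-Dll4. Every anti-Dll4 library of Rps14, a gene deleted in a form of myelodysplastic syndrome, lay above the controls, and the change of 2.48 ± 0.70 was the largest of the small subunit without passing the test (adjusted p = 0.303). Its neighbours at that site, Rps26 and Rps28, had changes of 0.14 ± 1.14 and 0.76 ± 0.89 with overlapping groups.

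Several abundant small-subunit genes had separate groups. Rps3a1 was at 539, 489 and 466 CPM with control IgG against 897, 894, 1005 and 933 CPM with anti-Dll4. Both groups were narrow, and the change was 0.90 ± 0.29 (adjusted p = 0.404). Rps23, a protein of the decoding centre, was at 388, 578 and 447 against 731, 582, 980.0 and 976 CPM, where anti-Dll4 2 barely exceeded control IgG 3 (change 0.78 ± 0.32, adjusted p = 0.680). Rps6, the substrate of the S6 kinases downstream of mTORC1, was at 246, 275 and 448 against 371, 325, 792 and 615 CPM, with overlap and a change of 0.66 ± 0.41 (adjusted p = 0.758), or 0.43 without anti-Dll4 3. For Rps3a1, Rps23 and Rps6 the change turned below 0 when scaled on endothelial markers or on the summed member CPM.

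Rps27a and Fau are made as fusions, the first to ubiquitin and the second to a ubiquitin-like protein, and are cut apart after translation. Rps27a was at 296, 212 and 396 CPM with control IgG against 789, 674, 633 and 1043 CPM with anti-Dll4, separate groups with a change of 1.40 ± 0.35 (adjusted p = 0.178). Fau was at 53.7, 25.8 and 37.8 against 85.0, 140.1, 90.6 and 88.6 CPM, also separate (change 1.38 ± 0.76, adjusted p = 0.731). Scaled on endothelial markers, Rps27a and Fau each had a change of 0.19. Rack1, a scaffold on the small subunit, was at 190.0, 184 and 271 against 206, 71.6, 602 and 548 CPM, with anti-Dll4 2 the lowest library and anti-Dll4 3 the highest (change 0.32 ± 0.60, adjusted p = 0.939).

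Rps19, the gene most often mutated in Diamond-Blackfan anaemia, was at 56.7, 44.2 and 36.5 CPM with control IgG against 127, 359, 220.4 and 253 CPM with anti-Dll4. The groups were far apart, and the change was 2.29 ± 0.61 (adjusted p = 0.251). Rpsa, also known as the laminin receptor, was at 37.8, 11.8 and 89.3 against 108, 99.7, 221 and 160.4 CPM, separate groups with a change of 1.99 ± 0.78 (adjusted p = 0.642). It was 1.25 without control IgG 3, the lowest library of Rpsa, and 0.80 when scaled on endothelial markers. The changes of Rps25 and Rps10 were negative and small beside their errors, at -0.33 ± 0.98 and -0.14 ± 0.63, with adjusted p of 0.963 and 0.976. Both had overlapping groups and took the opposite sign when 1 library was left out (Rps25 without control IgG 4 or anti-Dll4 2, Rps10 without control IgG 1 or anti-Dll4 2).

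Members differed in how well they were measured. The 52 members with a mean of at least 100 CPM had a median change of 1.12, with 46 positive and 24 separate and higher, while the 28 below 100 CPM had a median of 0.92, with 21 positive and 4 separate and higher. Other genes with a mean of at least 100 CPM, 2268 in number, had a median of -0.11, and 6.75% of them were separate and higher. In 6 members (Rpl15, Rpl22, Rpl35a, Rps3, Rps15a and Rps27l) at least 1 library held 3 reads or fewer. For Rpl32l, Rpl32, Rpl37, Rps10 and Rps15a the ratio of mean CPM and the log2 change differed in sign. The median SD of the members on the log2 scale was 0.709 in control and 0.689 in anti-Dll4 libraries, and 1.05 and 1.56 over all tested genes. The table gives Rps27 and Rps27rt the same reads in every library.

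Ribosomal protein mRNAs are short, with a median coding transcript length of 681 bases for 79 members and 2162 bases for 10674 other tested genes (GENCODE M21). Changes in other genes ran slightly with length, from a median of 0.03 for 1991 genes under 1000 bases to -0.26 for the 1960 genes of the longest class. The 414 other genes under 1000 bases with a mean of at least 100 CPM had a median of -0.06, and 10.1% of them were separate and higher, beside 28 of 80 members. The part of length in the members' changes was not tested further.

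Genes around the ribosome were read from lists chosen with earlier results of these data known. Of 7 tested elongation factor genes including Tpt1, 4 were positive (median 0.35), and Tpt1, whose mRNA also begins with a TOP motif, was called. Tpt1 was at 662, 652 and 688 CPM with control IgG against 1641, 1319, 1854 and 1781 CPM with anti-Dll4, and rose by 1.29 ± 0.26 (adjusted p = 0.0465, limma), a call lost in every fit with 1 library left out (adjusted p = 0.0624 to 0.176). The change of Tpt1 was 0.088 (adjusted p = 0.913) when scaled on endothelial markers and 0.33 when scaled on the summed member CPM. Initiation factors had 15 of 28 positive (median 0.25) and 0 called. Eif3f and Eif3g, subunits of the factor eIF3 and the members with the smallest p, had changes of opposite sign, 1.10 ± 0.46 and -3.81 ± 1.52 (adjusted p = 0.680 and 0.662).

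The list of mTOR genes and TOP regulators had 13 of 23 positive (median 0.14), and Ddit4, an inhibitor of mTORC1, was called. Ddit4 was at 518, 476 and 661 CPM with control IgG against 1789.9, 1182, 2020.0 and 1976 CPM with anti-Dll4, and rose by 1.64 ± 0.28 (adjusted p = 0.0158, limma). That call was lost without control IgG 1 or without anti-Dll4 1 or 4 (adjusted p = 0.0698, 0.0900 and 0.121). It was also lost when libraries were scaled on endothelial markers (change 0.43, adjusted p = 0.498) or on the summed member CPM (0.68, adjusted p = 0.250), with the rod covariate (1.34, adjusted p = 0.556) and without the mean-variance trend (adjusted p = 0.723). Ribosome biogenesis genes, which act in the nucleolus before the subunits leave it, had 20 of 40 positive, a median of -0.02 and 0 called. Wdr75, a factor of small-subunit assembly, had 159, 223 and 213 against 34.8, 114, 39.1 and 137 CPM, every anti-Dll4 library below the controls (change -1.51 ± 0.66, adjusted p = 0.693), and Nolc1 a change of -3.35 ± 1.59 (adjusted p = 0.695) with 0 reads in anti-Dll4 1 and 2. Mitochondrial ribosomal proteins had 35 of 68 tested genes positive, a median of 0.20 and 0 called. The mitochondrial members with the smallest p, Mrps28 and Mrpl19, had changes of 3.43 ± 1.52 and -2.56 ± 1.17 (adjusted p = 0.695 and 0.695, limma). Mrps28 had at most 1 read in each control library and 46, 12, 1 and 112 reads in anti-Dll4 1, 2, 3 and 4. The change of Mrpl19 was -1.56 without anti-Dll4 4. The differences between these lists and the cytosolic members were not tested.

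**Figure D4:**
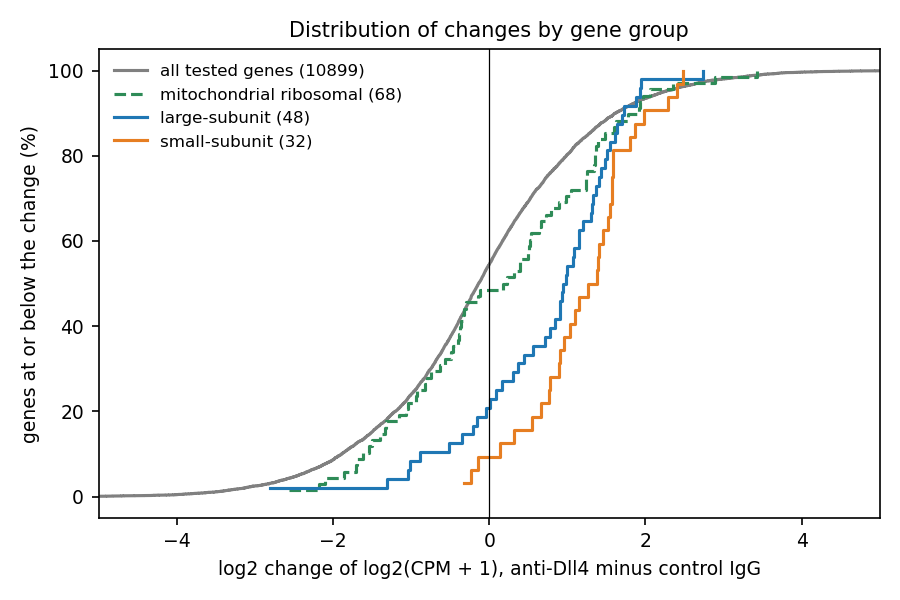
Cumulative percent of genes at or below each change of log2(CPM + 1), anti-Dll4 minus control IgG, for all 10899 tested genes, 68 mitochondrial ribosomal, 48 large-subunit and 32 small-subunit genes. The 2 cytosolic curves are shifted to the right, with medians of 0.96 and 1.32, and the mitochondrial curve lies near that of all genes. Scaled on endothelial markers, the medians are -0.23 for the large subunit, 0.13 for the small subunit and -1.17 for all genes. The subunit medians then lie 0.94 and 1.30 above that of all genes.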

How the data were processed

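RNA held by HA-tagged ribosomes from mouse retina was sequenced with QuantSeq, a 3′ end method, per the labels' protocols. The submitters' processing notes name cutadapt, TopHat2 and bedtools without versions, and hg19, a human build, although the symbols are mouse symbols; the sources used here give neither the counting rule nor the use of strand, and no coordinates of measured genes are given. The authors deposited log10 values of CPM + 1, with the CPM summing to 1000000 in each library. Whole reads were computed from the CPM of 1 read (100% of values whole within a relative 1e-06). These held 1356192 to 1771086 reads per library; the labels mention no molecular identifiers.

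Values were converted to log2(CPM + 1) and fitted with limma 3.58.1 in R 4.3.3 (antibody as the only term, mean-variance trend, two-sided). Members and gene lists were chosen with earlier results of these data known, and role groups with the values known. Named members were Rpl22, Rpl22l1, the stalk genes, Rpsa, Fau, called members, and in each subunit the 5 with the highest mean CPM, the 4 with the largest positive and up to 3 with the largest negative changes; others were named after their values were seen. Of each other list, called genes or the 2 with the smallest p were named. Alternatives were the pseudocount, the filter, the trend, voom, scaling, a rod covariate, a replicate block and leaving out each library. No other per-sample columns were in the table. Some genes that the rule names are not reported here one by one; sums, counts and medians include all members.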

Additional observations from a re-analysis of the deposited data

Results flagged for a closer look

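In 2 of the 31 anti-Dll4 groups examined, 1 library lay farther from the others than Dixon's 95% critical value for 4 samples allows, and chance alone marks about 1 group in 20. Fau, which encodes a small-subunit protein fused to a ubiquitin-like protein, was at 140.1 CPM in anti-Dll4 2, against 85.0, 90.6 and 88.6 CPM in anti-Dll4 1, 3 and 4. All 4 of these lay above the control range of 25.8 to 53.7 CPM. Rpl35a, a large-subunit gene, was at 82.1 CPM in anti-Dll4 3, against 0.670, 0.612 and 9.60 CPM in anti-Dll4 1, 2 and 4, while its control libraries held 30.2 to 82.1 CPM.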

How the results depend on the processing

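The medians of both subunits kept their positive sign under every alternative run, except that of the large subunit scaled on endothelial markers. Over all genes 13 were called higher. That count was 0 without the mean-variance trend, 1 when scaled on endothelial markers, 1 with the rod covariate, 2 when scaled on the summed ribosomal protein CPM (an alternative added after the data were seen), and 3 to 20 with 1 library left out. Against 0 called lower, voom called 24, endothelial scaling 162 and ribosomal protein scaling 63. The call of Rpl13a, 1 large-subunit gene, became 0 with a pseudocount of 5, without the trend, with the rod covariate and with ribosomal protein scaling, and 0 to 1 with 1 library left out; under endothelial scaling Rpl30 was the called gene. The call of Rps9, 1 small-subunit gene, became 0 without the trend, with either of these scalings and with the rod covariate, and 0 to 1 with 1 library left out. The ribosomal protein scaling divides each library by the members' own summed CPM. It thereby removes a change that the members share, so fewer member calls are built into it. The cause of the other changes was not tested.

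The large-subunit median of 0.96 was -0.23 with endothelial scaling, 0.55 with the rod covariate, 0.0095 with ribosomal protein scaling, and 0.79 to 1.16 with 1 library left out. The small-subunit median of 1.32 was 0.13 with endothelial and 0.37 with ribosomal protein scaling. Ribosomal protein scaling removes a shared change of the members by construction, so its medians and sign turns do not test that change. The difference in percent of CPM turned to -0.25 for the large and -0.0498 for the small subunit with endothelial scaling. The TOP motif share rose to 71.0% with the wider window. With endothelial scaling the sign turned for Rpl27a (-0.12), Rpl4 (-1.11), Rpl41 (-0.64), Rplp1 (-0.055), Rplp2 (-0.27), Rps23 (-0.42), Rps3a1 (-0.30), Rps6 (-0.55), Eif3f (-0.10) and Rack1 (-0.88). With ribosomal protein scaling it turned for Rpl4 (-0.87), Rpl41 (-0.40), Rplp2 (-0.034), Rps23 (-0.18), Rps3a1 (-0.058), Rps6 (-0.31) and Rack1 (-0.64), and with the rod covariate for Rpl41 (-0.026), Rps6 (-0.054) and Rack1 (-1.06). With 1 library left out, changes ranged from -1.93 to 0.18 for Rpl22, from -0.10 to 0.33 for Rpl4, from -0.64 to 0.23 for Rps10, from -0.997 to 0.094 for Rps25 and from -0.072 to 0.95 for Rack1.

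The columns number libraries in both groups, although that of control IgG 1 matches no title. Same-numbered libraries correlated at 0.05, 0.05 and 0.07 in their deviations from the group means (none over 0.1). Each control correlated best with its own number, and the other combinations lay between -0.037 and 0.015. The main fit did not treat the numbers as pairs, and whether they mark pairs is not known. With a replicate block on title numbers, 1 gene was called higher and 2 lower, 0 members of either subunit were called, Ddit4 had an adjusted p of 0.183 (limma), the large-subunit median was 1.18, and Rpl22 (0.14), Rpl4 (-0.10), Rps10 (0.79) and Rps25 (0.93) turned sign. In that fit control IgG 1 and anti-Dll4 1 and 2 had no partner and added nothing to the changes. Those changes rest on the libraries numbered 3 and 4, and few libraries were left to estimate the error. With a replicate block on column numbers, 4 genes were called higher, 0 members of either subunit were called, the large-subunit median was 1.16, and Rpl22 (0.18), Rps10 (0.21) and Rps25 (0.094) turned sign. Here anti-Dll4 2 had no partner, so these changes are the same as in the fit without anti-Dll4 2. At this depth 3 reads correspond to 1.69 to 2.21 CPM, which limits the members with few reads.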
